A study of Mus musculus with 12 samples.

Results

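FLK1-positive mesoderm of the E7.5 mouse embryo was compared by the status of a FOXF1 reporter, on 4 of the 6 gene-level arrays of the study. The 4 arrays were taken by their titles: 2 of cells sorted as FLK1-positive and FOXF1-positive (called double-positive here) and 2 of cells sorted as FLK1-positive and FOXF1-negative. All embryos, those of the FOXF1-negative cells included, carried a foxf1::venus knock-in on a C57BL/6 background, in which the fluorescent protein VENUS reports Foxf1. The sources used here do not say whether one or both Foxf1 alleles carried it. Each array held the RNA of 50 cells, sorted straight into lysis buffer, amplified and hybridised to a mouse exon array. The titles number the sorts 1 and 2 in each population, and the design text calls them biological replicates. Which embryos, or how many, went into a sort is not given. The remaining 2 arrays, of FLK1-negative FOXF1-positive cells, entered the pooled estimate of the spread and are given beside the results.

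FLK1, encoded by Kdr, is the receptor for vascular endothelial growth factor that marks mesodermal precursors of blood and endothelium. FOXF1 is a forkhead transcription factor of extraembryonic and lateral mesoderm, and mouse embryos that lack it fail to form a normal allantois and yolk sac vasculature. At this stage the first red cells, the primitive erythroid cells, arise from FLK1-positive mesoderm of the yolk sac and make embryonic globins. Hbb-bh1 encodes one of these globins, a beta-like chain. Cited4 encodes a transcriptional coregulator that binds the coactivators CBP and p300, and Cldn3 encodes claudin 3, a tight junction protein of epithelia.

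The deposited values are log2 signals for 22400 rows with Ensembl gene IDs. The files do not pair the IDs with names, and 3 rows have symbols here, Hbb-bh1 (ENSMUSG00000052217), Cited4 (ENSMUSG00000070803) and Cldn3 (ENSMUSG00000070473). These symbols came with the definition of the comparison and could not be checked against an annotation. Medians per array ran from 6.00 to 6.07, and the dimmest 1% of rows lay below 3.74 to 3.81, depending on the array. No row could be identified as Kdr or Foxf1, so the sort labels were not checked against RNA and are used as given. If the row ENSMUSG00000042812 were Foxf1, which the sources used here do not settle, RNA would not back the double-positive label. The sort read a fluorescent reporter and not RNA, and this row equals 1 probe set, so the label itself was not tested. Signals of this row were 4.35 and 4.81 in double-positive cells and 4.71 and 4.43 in FOXF1-negative cells, and the groups overlapped. In FLK1-negative FOXF1-positive cells they were 8.51 and 7.91, above all 4 FLK1-positive arrays.

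Double-positive cells had much lower signals than FLK1-positive FOXF1-negative cells for the embryonic globin Hbb-bh1 and the coregulator Cited4, and a higher signal for the claudin Cldn3. For each of these 3 genes the arrays of the populations were far apart. No row passed the threshold, a Benjamini-Hochberg adjusted p under 0.05 in limma over all 22400 rows, and the smallest adjusted p was 0.135. Rows called in either direction thus made up 0% of all rows. At an unadjusted limma p under 0.05 there were 435 rows higher (1.94% of all rows) and 612 rows lower (2.73%) in double-positive cells. With no differences at all, a share of about 0.05 of rows would lie under this mark. Both directions together did not exceed that share. The differences of the 3 genes are therefore given as measured, with their errors.

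The log2 signal of Hbb-bh1 was 7.27 and 6.51 in FOXF1-negative cells of sorts 1 and 2, against 3.61 and 3.69 in double-positive cells. Both double-positive values lay below the mark of the dimmest 1% of rows, so this difference reaches down to the bottom of the signal scale, where an absent transcript cannot be told from a low one. In FLK1-negative FOXF1-positive cells the signals were 3.79 and 3.81, also near the bottom. The difference between the FLK1-positive populations was -3.24 ± 0.28 log2 units (SE, limma, n = 2 arrays each, adjusted p = 0.135), and 2.82 log2 units separated the nearest arrays. With double-positive cells at the bottom of the scale, this is a difference of deposited values, and no fold is given. Hbb-bh1 was the row with the smallest p of all 22400. In RNA from a pool of cells, fewer cells of a type and less RNA per cell cannot be told apart.

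Cited4 had the largest difference of any row in either direction. Its log2 signal was 11.16 and 11.57 in FOXF1-negative cells and 7.29 and 5.63 in double-positive cells. The groups were separated by 3.87 log2 units, but the sorts of double-positive cells differed far more from each other than those of FOXF1-negative cells (SD 1.17 against 0.29, n = 2 each). The FLK1-negative FOXF1-positive arrays were at 4.62 and 6.04, so all 4 arrays of FOXF1-positive populations were below both FOXF1-negative arrays. The difference was -4.90 ± 0.61 log2 units (SE, limma adjusted p = 0.230), or 29.9-fold on the linear scale. This fold is rough, since 1 of the 2 probe sets behind the row was low in double-positive cells, at 4.57 and 4.13. With double-positive sort 1 left out the log2 difference was -5.73, and with sort 2 left out -4.07.

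Cldn3 ran the other way, and it set double-positive cells apart from both other populations. Its log2 signal was 8.88 and 8.61 in double-positive cells, 6.51 and 6.58 in FOXF1-negative cells, and 5.44 and 5.30 in FLK1-negative FOXF1-positive cells. Both double-positive arrays were above the other 4 arrays. The difference between the FLK1-positive populations was 2.20 ± 0.21 log2 units (SE, limma adjusted p = 0.141), or 4.60-fold, the second smallest p of all rows. Claudin 3 is a protein of epithelia, and endoderm is an epithelium near mesoderm in these embryos. The other endodermal and epithelial markers could not be placed on rows, and the part of such cells in this difference was not tested.

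**Figure D1:**
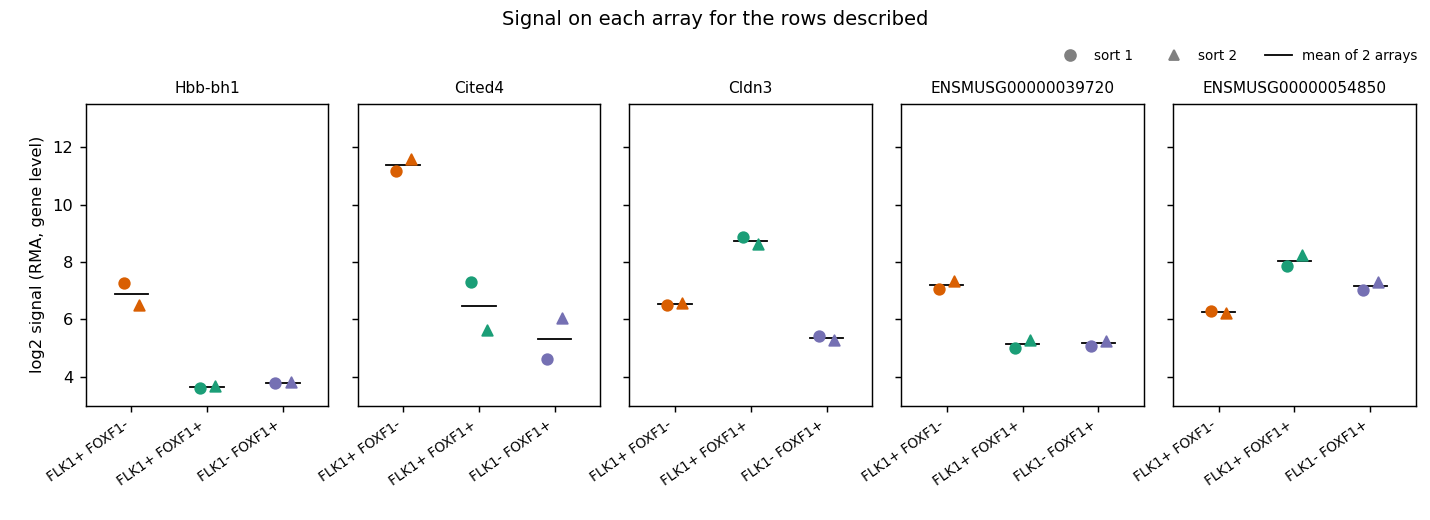
Log2 gene-level signal (vertical axis) on each of the 6 arrays for the 5 rows described, by population (horizontal axis); circles are sort 1, triangles sort 2 and bars the mean of 2 arrays. Hbb-bh1, Cited4 and ENSMUSG00000039720 are highest in FLK1-positive FOXF1-negative cells among these 3 populations, and Cldn3 and ENSMUSG00000054850 are highest in double-positive cells.

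The next row in each direction by p, among rows that differed by at least 1 log2 unit with arrays that did not overlap, had no symbol. ENSMUSG00000039720 was at 7.06 and 7.34 in FOXF1-negative cells and at 5.00 and 5.27 in double-positive cells. Its difference was -2.07 ± 0.22 log2 units (SE, limma adjusted p = 0.163), the same between the arrays of either sort number. ENSMUSG00000054850 was at 6.31 and 6.21 in FOXF1-negative cells and at 7.85 and 8.25 in double-positive cells. Its difference was 1.79 ± 0.23 log2 units (SE, limma adjusted p = 0.230). In FLK1-negative FOXF1-positive cells the former was at 5.09 and 5.26, at the double-positive level. The latter was at 7.04 and 7.30, between the FLK1-positive populations.

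The exon-level table holds the same arrays as 128950 probe sets, each a small group of probes, without gene names. The probe sets behind a gene row were traced by value: the signal of a gene row equalled, to 5 decimals, that of a probe set or the mean of a pair of probe sets on the same array. A tracing of this kind finds probe sets near the middle of a gene's range and can miss others. For Hbb-bh1 it found 3 probe sets, pairs of which gave the signal on all 6 arrays. Probe set 4590584 was at 7.14 and 6.60 in FOXF1-negative and at 3.96 and 3.91 in double-positive cells. Probe set 5407311 was at 7.40 and 6.42 against 3.66 and 4.10, and probe set 4969955 at 5.90 and 5.72 against 3.56 and 3.48. All 3 thus had FOXF1-negative arrays above and double-positive arrays close to the bottom of the scale, with differences of -2.94, -3.03 and -2.29 log2 units.

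For Cited4 the tracing found 2 probe sets, whose mean equalled the gene signal on all 6 arrays, and they differed in how well the sorts of double-positive cells matched. Probe set 4858475 was at 9.29 and 10.02 in FOXF1-negative cells and at 4.57 and 4.13 in double-positive cells, a difference of -5.30 ± 0.36 log2 units (SE, limma adjusted p over all probe sets = 0.0985). Probe set 5418779 was at 13.02 and 13.12 against 10.01 and 7.14, a difference of -4.50 ± 1.26 (adjusted p = 0.920). The spread of Cited4 between double-positive sorts thus came mostly from the latter probe set, which also differed most between the FLK1-negative FOXF1-positive sorts, at 4.93 and 8.29. On both probe sets the FOXF1-negative arrays were above all others. The signal of Cldn3 equalled that of probe set 4443176 on 5 of 6 arrays, the exception being FLK1-negative FOXF1-positive sort 2.

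**Figure D2:**
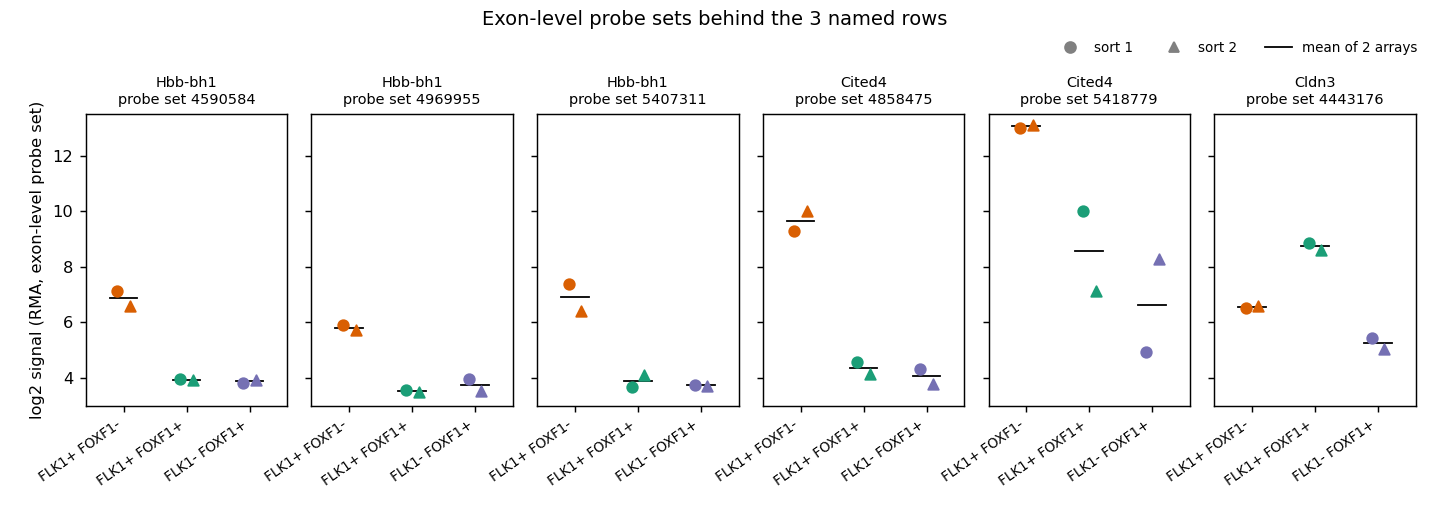
Log2 signal (vertical axis) of the exon-level probe sets traced to Hbb-bh1, Cited4 and Cldn3 on each of the 6 arrays, by population (horizontal axis), with symbols as in the plot of gene-level signals. FOXF1-negative cells are highest on all 3 probe sets traced to Hbb-bh1. Cited4 probe set 5418779 spreads from 7.14 to 10.01 in double-positive cells where 4858475 stays between 4.13 and 4.57.

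The row ENSMUSG00000039720 was less uniform than Hbb-bh1 at this level. Of the 3 probe sets traced to it, 5065949 was at 7.32 and 7.34 in FOXF1-negative and at 5.00 and 4.68 in double-positive cells. Probe set 4580565 was at 7.06 and 7.48 against 6.42 and 5.50. The third, 4461101, was at 5.14 and 5.24 against 4.73 and 5.27, so its groups overlapped. ENSMUSG00000054850 and ENSMUSG00000042812 had the values of 1 probe set each, on every array, and allow no such comparison.

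Tested probe set by probe set, 1 of 128950 passed the threshold, and it was lower in double-positive cells (0.000775% of probe sets). None passed as higher. At an unadjusted limma p under 0.05 there were 2525 probe sets higher (1.96%) and 3346 lower (2.59%), together no more than a share of 0.05. The probe set that passed, 4803921, was at 9.08 and 8.69 in FOXF1-negative cells and at 3.39 and 3.40 in double-positive cells. Its difference was -5.49 ± 0.25 log2 units (SE, limma adjusted p = 0.0440). The double-positive signals lay at the bottom of the scale, so this too is a difference of deposited values and not a measured fold. In FLK1-negative FOXF1-positive cells it was at 3.70 and 3.92, again well below the FOXF1-negative arrays. No gene row equalled it on any array, but tracing by value can miss probe sets at the ends of a gene's range. By value it goes with Hbb-bh1. Among it and the 3 probe sets traced to Hbb-bh1, the mean of the middle pair equals the Hbb-bh1 row on every array, within rounding. The median of the 3 traced probe sets alone equals that row on 0 arrays. Its signals lay above all 3 probe sets traced to Hbb-bh1 in FOXF1-negative cells and below them in double-positive cells. That it belongs to Hbb-bh1 rests on these values and could not be checked against an annotation.

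Over all 22400 rows the populations were close. The middle 50% of differences lay between -0.19 and 0.17 log2 units, 1% of rows were below -1.02 and 1% above 0.86. The arrays of the populations did not overlap for 3510 rows higher (15.7%) and 3655 rows lower (16.3%) in double-positive cells. With 2 arrays against 2, random order alone separates the arrays at least this often, so these counts alone show no difference. Larger differences were more often on the lower side. Of the rows without overlap, 213 were lower by at least 1 log2 unit (0.951% of all rows) and 116 higher (0.518%). At 2 log2 units or more there were 24 rows lower (0.107%) and 9 higher (0.0402%). These are counts by size, with no test of the imbalance.

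**Figure D3:**
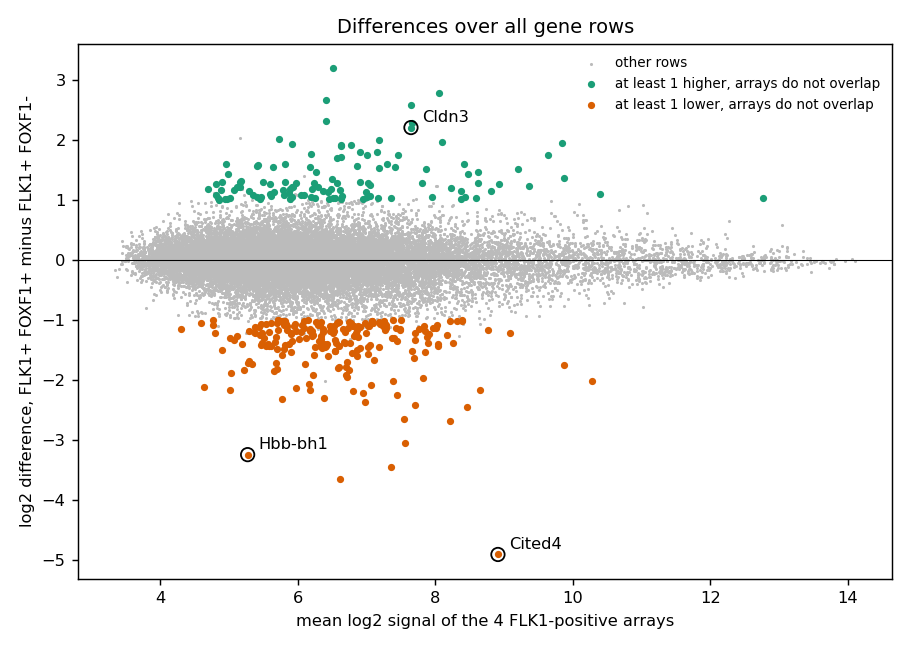
Log2 difference, double-positive minus FLK1-positive FOXF1-negative cells (vertical axis), against the mean log2 signal of the 4 FLK1-positive arrays (horizontal axis) for 22400 gene rows. Coloured points are the 116 rows higher and 213 rows lower by at least 1 log2 unit with arrays that do not overlap; Cited4 has the largest difference of all, and the lower side reaches farther from 0 than the higher side.

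The rows in these groups were alike in the median signal of the low population. Among the 213 lower rows the median signal was 7.20 in FOXF1-negative and 5.78 in double-positive cells, and the low mean was under 5 for 43 of them. The 116 higher rows had medians of 5.73 in FOXF1-negative and 7.07 in double-positive cells, and the low mean was under 5 for 30. The share of all rows under 5 was not counted, so these counts are not read as a trait of either group. A signal equal to a single probe set on all 6 arrays made up 22.5% of the lower and 25.9% of the higher rows, against 28.7% of all rows.

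The FLK1-negative FOXF1-positive arrays, which had no part in choosing these rows, were read beside them. For the 213 lower rows their median signal was 6.03, and for 159 rows (74.6%) their mean was closer to that of double-positive cells than to that of FOXF1-negative cells. Hbb-bh1, Cited4 and ENSMUSG00000039720 were among these. For the 116 higher rows the median was 6.64, with 62 rows (53.4%) closer to double-positive cells. Among all 11284 rows lower and 11116 rows higher in double-positive cells, whatever the size, the same shares were 52.4% and 53.1%. Cldn3 was not among them, since its FLK1-negative signal lay below both others, as in 20 of the 116 rows. The share was thus above that of all rows for the lower rows and close to it for the higher rows. These are descriptions over rows that are not independent and that were chosen on the FOXF1-negative and double-positive arrays used for the distance, and no difference between shares was tested.

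Arrays with the same sort number can be set against each other, and the difference read in the other number, with separate arrays. This matching is by number alone. The labels do not say that same-numbered sorts shared embryos or a session, so the opposite matching would be as valid. In sort 1, 559 rows were lower in double-positive cells by at least 1 log2 unit, and 334 of them (59.7%) were also lower in sort 2, where 48.4% of all rows were lower. In sort 2, 100 of the 559 (17.9%) were again lower by at least 1 log2 unit, against 2.51% of all rows. Another 39 (6.98%) were higher by as much, against 2.08% of all rows. Of the 275 rows higher in sort 1, 49 (17.8%) were higher by at least 1 log2 unit in sort 2, against 2.08% of all rows. Another 13 (4.73%) were lower by as much, against 2.51% of all rows. Differences of this size in sort 1 mostly did not recur in sort 2, and those that did had more often the same than the opposite direction. Changes in the opposite direction were also more frequent than over all rows.

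The reading from sort 2 to sort 1 holds the same 100 lower and 49 higher rows past 1 log2 unit in both sorts. The opposite counts, 39 and 13, are also shared. For these counts it is no second result, and only the number of rows chosen differs. Of the rows chosen, the share was alike for the lower rows and smaller for the higher rows. Of 562 rows lower in sort 2 by at least 1 log2 unit, 355 (63.2%) were lower in sort 1, against 52.5% of all rows. By at least 1 log2 unit, 100 (17.8%) were lower in sort 1, against 2.50% of all rows. Another 13 (2.31%) were higher by as much, against 1.23% of all rows. Of 466 rows higher in sort 2 by at least 1 log2 unit, 234 (50.2%) were higher in sort 1, against 47.5% of all rows. By at least 1 log2 unit, 49 (10.5%) were higher in sort 1, against 1.23% of all rows. Nearly as many, 39 (8.37%), were lower by as much, against 2.50% of all rows.

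Across all rows, which are not independent, the differences of sorts 1 and 2 correlated with r = 0.109. Hbb-bh1 differed by -3.66 in sort 1 and -2.82 in sort 2, Cited4 by -3.87 and -5.94, and Cldn3 by 2.37 and 2.03. All 3 were thus among the 149 of 22400 rows that differed by at least 1 log2 unit the same way in both sorts. Of these 149 rows, 100 were lower and 49 higher. For the 3 genes this follows from the gaps between the nearest arrays, 2.82, 3.87 and 2.03 log2 units. It is no further result.

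**Figure D4:**
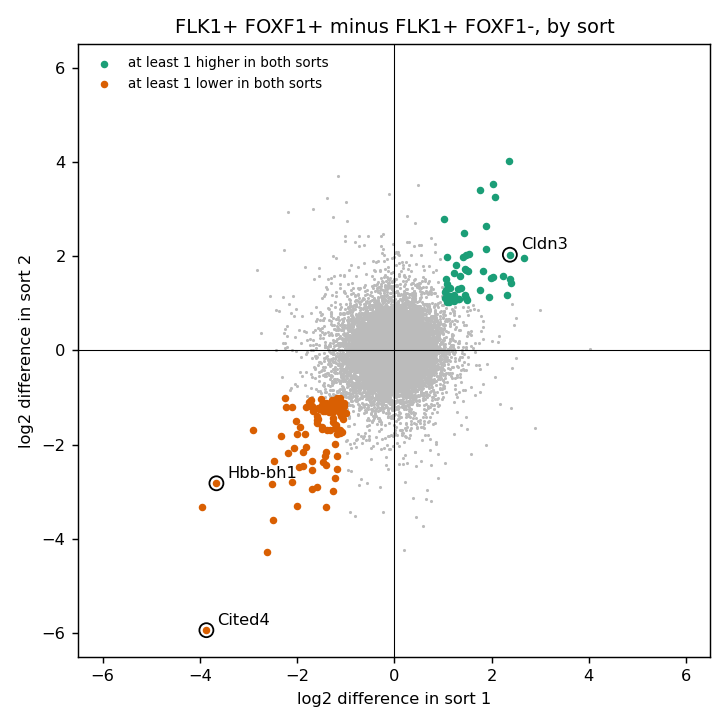
Log2 difference, double-positive minus FLK1-positive FOXF1-negative cells, in sort 1 (horizontal axis) and sort 2 (vertical axis) for 22400 gene rows. Arrays are matched by sort number alone. Coloured points are the 49 rows at least 1 log2 unit higher and the 100 rows at least 1 lower in both sorts; most rows form a round cloud around 0, and Hbb-bh1, Cited4 and Cldn3 lie outside it.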

How the data were processed

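The authors deposited log2 signals in both tables. RMA, a multi-array average, and Affymetrix Power Tools are the tools listed in the submitters' processing notes, with no version, and the range of the values gave the log2 scale. The 12 deposited samples are 6 arrays, each summarised per gene and again per probe set. No detection calls were used here.

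The deposited log2 values were fitted as they stand with limma 3.58.1 in R 4.3.3 over all 6 gene-level arrays, with population as the only factor (3 residual and 4.27 prior degrees of freedom). Tests were two-sided and adjusted over all rows by Benjamini-Hochberg. A run on simulated data, with independent noise and added shifts, checked only that the fit returns such shifts. It had no bottom of the scale and does not measure the power of these arrays. The median SE of a difference was 0.251 log2 units, and the number of arrays limits the precision. Nothing says whether the 2 sorts came from separate litters, so p-values measure only the spread between these arrays. Python 3.11.15 with matplotlib 3.10.9 drew the figures.

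Of the Ensembl IDs, 0 matched the reference table of 49997 genes (GRCm38.p6), so the 29 planned gene lists and the planned check of the sorting genes were not run. The rule for named rows was the 3 symbols given with the comparison and, without symbols, the 2 rows per direction with the smallest p among those differing by at least 1 log2 unit without overlap. ENSMUSG00000042812 was added with its values known. The members, the lists and the tests were chosen with earlier results of these data known, and the tracing of probe sets and the reading by sort were chosen with the values at hand. The alternatives were scaling, a filter on dim rows, the variance prior, the arrays in the fit, the sort number as a block, rows equal to a single probe set, the exon-level table and leaving out each array. The sorts were not taken as paired, since the deviations of same-numbered sorts correlated across rows at 0.137, 0.0975 and 0.0591 between pairs of populations.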

Additional observations from a re-analysis of the deposited data

How the results depend on the processing

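In limma, no gene row passed the threshold in either direction under any of the 13 gene-level alternatives, with a smallest adjusted p between 0.0697 and 0.611. The exon-level table gave 1 lower probe set. The rows at an unadjusted p under 0.05 numbered 1047, and 976 to 1272 in the alternatives that tested all rows, the highest count coming from the fit with sort as a replicate block. The block's smallest adjusted p was 0.156, and it changed no call. The 116 higher and 213 lower rows became 72 and 135 among the brighter 50% of rows, which are fewer rows, and 1491 and 2682 among probe sets, which are more. When each array was left out in turn, the higher rows numbered 116 to 321 and the lower rows 213 to 441, since a lone array overlaps less easily. With either FLK1-negative array left out, that population has no spread of its own, and the test is the one on the 4 FLK1-positive arrays. Over these alternatives the difference lay between -3.62 and -2.86 for Hbb-bh1, between -5.73 and -4.07 for Cited4 and between 2.07 and 2.34 for Cldn3, with limma adjusted p from 0.0697, 0.177 and 0.0913 upwards. ENSMUSG00000042812, at 0.01 log2 units, changed sign without FOXF1-negative sort 2 (-0.13) and without double-positive sort 2 (-0.22), and reached 0.24 without double-positive sort 1. Hbb-bh1 was not among the brighter 50% of rows, and ENSMUSG00000054850 and ENSMUSG00000042812 could not be read without rows equal to a single probe set. The alternatives for gene lists were not run. RNA from 50 cells and 2 arrays limit all of these counts.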
